A study of Mus musculus with 6 samples.

Results

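The genes described here encode the degradative enzymes and the membrane proteins of the lysosome other than the cathepsins. They are 35 genes listed by symbol, and no measured value was used as a criterion, though earlier results of these data were known. All 35 were found among the 49315 genes listed in the count tables. They comprise 6 proteins of the lysosomal membrane, 7 hydrolases of glycans, 5 of glycosaminoglycans, 8 hydrolases or activators acting on lipids, 2 peptidases, 2 acid phosphatases, 3 subunits of the proton pump and 2 transcription factors of lysosomal genes. The RNA was that of F4/80-positive liver cells, purified with magnetic beads, from 3 mice of each genotype (WT and Lpcat3KOMac) on a C57BL/6N background. WT mice were *Lpcat3* fl/fl, *LysM* +/+ littermates, and Lpcat3KOMac mice were *Lpcat3* fl/fl, *LysM* Cre/+, so that both groups carried the floxed gene and the mutant mice alone carried Cre. All mice received a high-fat diet (HFD) with 60% fat for 16 weeks and no other treatment. Cre is expressed from the *LysM* (*Lyz2*) locus in myeloid cells, where the study describes the deletion as partial. Males and females were used in the study, and the diet began in young adulthood according to its methods. The labels do not give the sex of the sequenced mice. The question was which genes of liver macrophages differ when LPCAT3, an enzyme that places polyunsaturated fatty acids in membrane phospholipids, is reduced.

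Lysosomes are acidic vesicles in which macromolecules taken up from outside the cell, or delivered by autophagy, are broken down. A proton pump, the vacuolar ATPase, keeps them acidic, soluble hydrolases each cut a given bond, and heavily glycosylated membrane proteins such as LAMP1 and LAMP2 line the inner face. Kupffer cells, which are the liver's own macrophages, clear particles, lipoproteins and dying cells and rely on this system. The transcription factors TFEB and TFE3 bind E-box sequences close to the start of many lysosomal genes, and their activity is mainly set by phosphorylation and entry into the nucleus.

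Total counts lay between 44954224 and 71392812 per library, and every lysosomal gene had at least 226 counts in every library. Levels are given as CPM, the counts of a gene per 1000000 counts of its library after TMM scaling. The targeted *Lpcat3* was measured at 85, 66.2 and 61.2 CPM in the WT mice (numbered 1 to 3, in this order throughout) and at 19.5, 33.3 and 19.4 CPM in the Lpcat3KOMac mice. *Lyz2*, the locus that carries Cre, stood at 4695, 7659 and 6285 CPM in WT and 2452, 1533 and 2980 CPM in Lpcat3KOMac mice. Both genes were lower in every Lpcat3KOMac mouse than in any WT mouse. The 8 Kupffer cell markers summed to between 25355 and 44274 CPM in the 6 mice. The 8 hepatocyte markers summed to between 2034 and 24949 CPM, with the highest sums in WT mouse 1 (24949 CPM) and Lpcat3KOMac mouse 2 (15129 CPM). The part of these hepatocyte transcripts in the results below was not tested beyond the covariate and the left-out libraries given there.

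Because TFEB and TFE3 are known to bind the E-box CACGTG, the promoters of the lysosomal genes were searched for it. RefSeq windows (GRCm38.p6), running from 250 bases before to 50 bases after a gene start, were at hand for 32 of the 35 genes. The core CACGTG, which reads the same on both strands, was found in 9 of these 32 genes (28.1%). Over all 27025 genes with such windows it was found in 8.09%. The longer form CACGTGAC, searched on both strands and containing the core, was found in 8 of the 32 genes (25%) against 2.55% of all genes, and the palindrome TCACGTGA in 3 (9.38%) against 1.12%. These sequences were not particular to the 35 genes. Among cathepsins with windows, 4 of 9 (44.4%) had the core, 22.2% the longer form and 22.2% the palindrome. Among 56 other lysosome genes, of the lists given below, the shares were 26.8%, 14.3% and 14.3%. In all, 14 core sites were found in the 9 genes, and every one began before the RefSeq start of its window. The following 6 sites, printed 5′ to 3′ on the strand of the gene with the core in capitals and 12 bases on each side, show the 3 genes with the palindrome (*Mcoln1*, *Cln3*, *Atp6v0d1*) and the 2 most abundant genes with a core (*Lgmn*, *Lamp1*), together with *Glb1* as a hydrolase.
Mcoln1, chr8:3500462-3500491, plus strand: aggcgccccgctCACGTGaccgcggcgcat
Cln3, chr7:126583340-126583369, minus strand: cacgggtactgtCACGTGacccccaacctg
Atp6v0d1, chr8:105566050-105566079, minus strand: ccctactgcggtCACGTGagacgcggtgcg
Lamp1, chr8:13159121-13159150, plus strand: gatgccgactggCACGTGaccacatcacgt
Lgmn, chr12:102439124-102439153, minus strand: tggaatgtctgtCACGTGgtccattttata
Glb1, chr9:114401018-114401047, plus strand: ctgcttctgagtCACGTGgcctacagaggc

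The site of *Mcoln1* began 45 bases before the start, that of *Cln3* 121 bases before it, that of *Lamp1* 28 bases, that of *Lgmn* 49 bases and that of *Glb1* 48 bases before it, whereas the core of *Atp6v0d1* lay across the start. These distances count from the RefSeq starts. By the gene bounds of the count tables, the printed sites of *Mcoln1*, *Cln3* and *Lgmn* lie inside the gene. *Lamp1* held the most sites, with 4 cores in its window. A match shows that these letters are present and not that a factor was bound there. The 9 genes with a core had a median log2 fold change between genotypes of -0.05, and the 23 genes without it had one of -0.06.

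The lysosomal genes covered a wide range of abundance in F4/80-positive cells. Scaled to exon length so that genes could be compared, the mean level over the 6 mice ran from 3.43 CPM per kb for *Arsb* to 2603 CPM per kb for *Psap*. The level of *Arsb* is uncertain, since it shares 1948 of its 3989 exonic bases with *Gm26527* on the opposite strand. *Psap* encodes prosaposin, which is cut into the saposins, cofactors of sphingolipid hydrolases. It was followed by *Lgmn*, an asparaginyl endopeptidase, at 1444 CPM per kb, by *Lamp1* at 700.7 CPM per kb, by *Hexa*, a subunit of beta-hexosaminidase, at 398.6 CPM per kb and by *Lipa*, lysosomal acid lipase, at 391.2 CPM per kb. These 5 genes held 75.4% of the summed level per kb of the 35. *Hexa*, *Lipa* and *Acp5*, the last at 374.9 CPM per kb, had overlapping values and could not be ordered, since in Lpcat3KOMac mice the mean of *Lipa* (399.7 CPM per kb) was above that of *Hexa* (380.3 CPM per kb) and in WT mice it was below (382.6 against 416.9 CPM per kb). In all, 10 genes were above 100 CPM per kb, 18 lay between 10 and 100, and 7 were below 10, among them *Mcoln1* (8.84 CPM per kb), *Atp6v0d2* (8.19 CPM per kb) and *Tfeb* (7.72 CPM per kb).

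**Figure D1:**
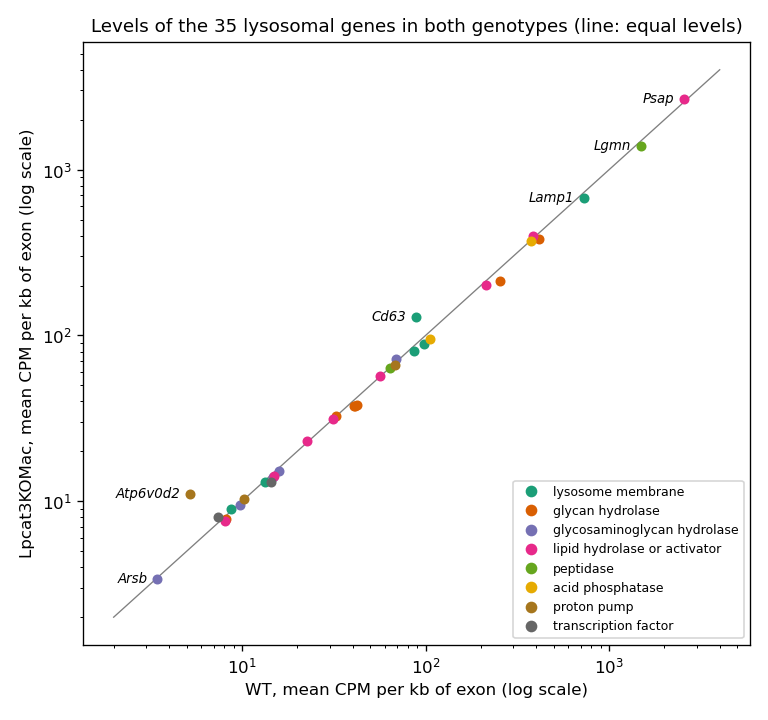
Mean level of each of the 35 lysosomal genes in 3 Lpcat3KOMac mice against 3 WT mice, in CPM per kb of exon on log axes, with 1 point per gene coloured by role and a grey line of equal levels. Nearly all genes sit along the line from *Arsb* to *Psap*, and *Atp6v0d2* (5.23 CPM per kb in WT and 11.1 in Lpcat3KOMac) and *Cd63* (88.9 and 129.1) lie above it.

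No lysosomal gene was called different between Lpcat3KOMac and WT mice. In the edgeR quasi-likelihood test over 16134 genes, 0 of the 35 passed an adjusted p of 0.05, as did 0 of all genes tested (0%). Even the targeted *Lpcat3* (log2 fold change -1.56, unadjusted p of edgeR 0.00119) and *Lyz2* (-1.42, 0.00351) were not called. The study reports both among the few genes that differed between genotypes in its own RNA-seq comparison. The absence of a call in the edgeR test therefore does not show the absence of a difference. At an unadjusted p under 0.05 the count was again 0 of 35, against 426 genes, or 2.64%, of all genes tested, and the smallest p of the 35 was 0.115 (*Atp6v0d2*). DESeq2 called 12 of the 13823 genes to which it gave an adjusted p (0.0868%), and none of them was a lysosomal gene. In limma-voom, 399 genes (2.47%) had an unadjusted p under 0.05, among them 1 lysosomal gene, *Atp6v0d2*. Groups of 3 mice allow no exact permutation p below 0.1, and in bulk RNA fewer cells of a type cannot be told apart from less RNA per cell.

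The estimated differences were small and their intervals mostly narrow. The median log2 fold change (Lpcat3KOMac over WT) of the 35 genes was -0.05, and over all genes tested it was -0.04. For 33 of the 35 (94.3%) the 95% interval of the log2 fold change lay within -1 and 1, the bounds of a 2-fold change, whereas this held for 63.4% of all genes tested. For 24 of the 35 it lay within -0.5 and 0.5. The median standard error was 0.12 for the 35 genes and 0.23 for all genes. The exceptions to the 2-fold bounds were *Cd63* and *Atp6v0d2*. Of 73 other lysosome genes, of the lists given below, 69 (94.5%) also had intervals within these bounds. All 35 genes had at least 226 counts in every library, whereas the genes tested included some with fewer than 10 counts in a library. The part of count level in the width of the intervals was not tested. Estimates were below 0 for 25 of the 35 genes (71.4%) and for 59.9% of all genes tested. When libraries were scaled by total counts alone, which moved the median of all genes from -0.04 to 0.06, they were below 0 for 11 of the 35 (31.4%) and for 35.1% of all genes.

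**Figure D2:**
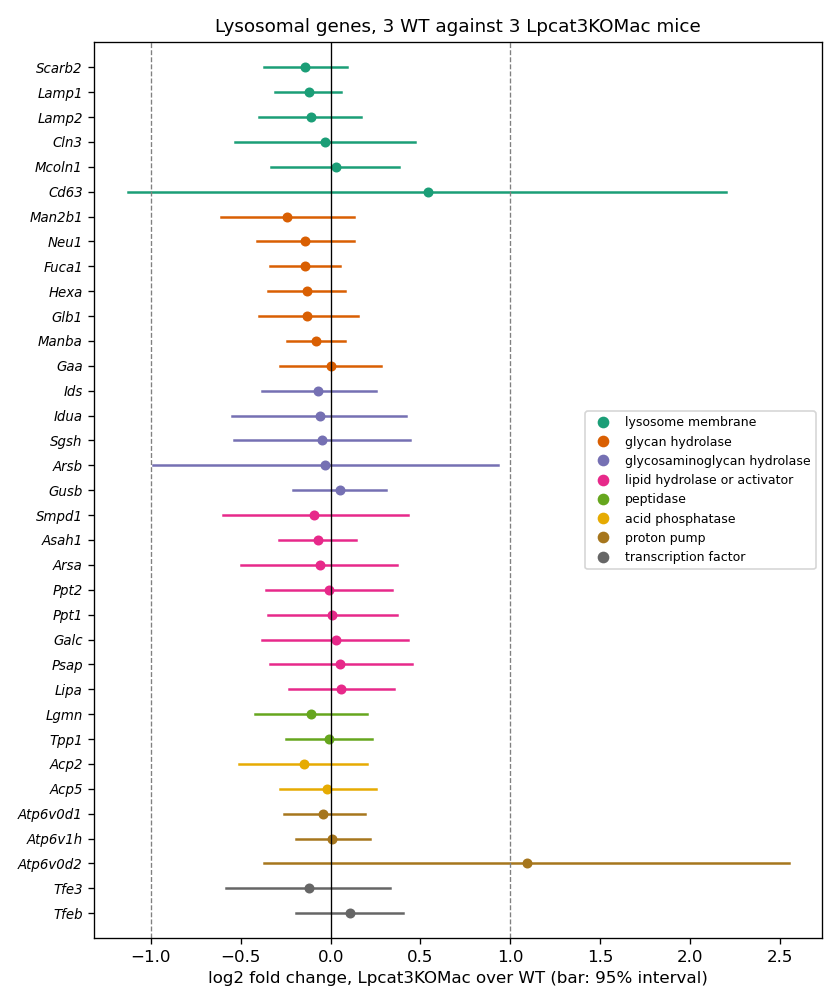
Log2 fold change of each lysosomal gene, Lpcat3KOMac over WT, from the edgeR fit, with its 95% interval as a bar and colours for the 8 roles; dashed lines mark a 2-fold change either way. All 35 intervals include 0, and those of *Cd63* and *Atp6v0d2* alone cross a dashed line. With the TMM scaling shown, 25 of 35 estimates (71.4%) lie left of 0, as do 59.9% of those of all genes; with total counts alone these shares are 31.4% and 35.1%.

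Among the lysosomal membrane proteins, *Lamp1* (chr8:13159161-13175338, plus strand), a main structural glycoprotein of the membrane, stood at 1942, 1999 and 1922 CPM in WT and 1803, 1822 and 1757 CPM in Lpcat3KOMac mice. Every Lpcat3KOMac mouse was below every WT mouse, with means of 1955 ± 39.8 CPM and 1794 ± 33.6 CPM (SD, n = 3 each). The log2 fold change was -0.12 (SE 0.07, 95% interval -0.31 to 0.06), the unadjusted p of edgeR was 0.151 and the exact permutation p was 0.1. With total counts alone the values of *Lamp1* in the 2 genotypes overlapped and its log2 fold change was -0.03. *Lamp2* (chrX:38401357-38456454), the related glycoprotein that also serves autophagy, measured 928, 829 and 728 CPM in WT and 796, 782 and 718 CPM in Lpcat3KOMac mice. Its values overlapped between genotypes (log2 fold change -0.11, SE 0.12). Per kb, *Lamp1* was 7.48 to 9.43 times as abundant as *Lamp2* in the 6 mice.

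*Scarb2* (LIMP-2), the receptor that carries beta-glucocerebrosidase to lysosomes, stood at 609.8, 643 and 593 CPM in WT and 519, 547 and 609 CPM in Lpcat3KOMac mice. The value of Lpcat3KOMac mouse 3 lay within the WT range (log2 fold change -0.14, SE 0.09, 95% interval -0.37 to 0.09). *Mcoln1*, the calcium channel of the lysosomal membrane, measured 57.6, 70.2 and 70.7 CPM in WT and 69.9, 56.6 and 75.9 CPM in Lpcat3KOMac mice, with a log2 fold change of 0.03 (SE 0.14). *Cln3*, a membrane protein lost in juvenile neuronal ceroid lipofuscinosis, averaged 76.7 ± 17.4 and 75.1 ± 10.9 CPM (SD, n = 3 each). It shares 442 exonic bases with *Apobr* on the opposite strand, which had up to 6133 counts, and since no strand setting is stated its level is uncertain.

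*Cd63* (chr10:128908919-128912816), a tetraspanin of late endosomes and lysosomes, was the most variable of these membrane genes. It stood at 78.6, 24.6 and 171.9 CPM in WT and 119, 161 and 119.5 CPM in Lpcat3KOMac mice. The lowest and the highest of the 6 values were both in WT mice, which therefore spanned the whole range of Lpcat3KOMac mice. The log2 fold change was 0.54 with a 95% interval from -1.13 to 2.20, and it was 0.09 without WT mouse 2 and 1.37 without WT mouse 3.

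All 7 hydrolases of glycans were without a call and their intervals lay within a 2-fold change. *Man2b1*, lysosomal alpha-mannosidase, had the lowest estimate of the 35 genes. It measured 1698, 2440 and 1953 CPM in WT and 1734, 1639 and 1786 CPM in Lpcat3KOMac mice. The first WT value lay within the Lpcat3KOMac range, and the log2 fold change was -0.24 (SE 0.15, 95% interval -0.61 to 0.13, unadjusted p of edgeR 0.161). Without WT mouse 1, which had the highest hepatocyte sum, it was -0.35 with an unadjusted p of 0.0417 (adjusted p of edgeR 0.386). In that fit 2028 of all 16487 genes tested had an unadjusted p under 0.05. Without WT mouse 2, the mouse with the highest value, the log2 fold change of *Man2b1* was -0.09.

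*Fuca1*, which removes fucose, stood at 138.9, 140.0 and 127 CPM in WT and 116, 124 and 128 CPM in Lpcat3KOMac mice. Lpcat3KOMac mouse 3 lay just above WT mouse 3, and the log2 fold change was -0.14 (SE 0.08, 95% interval -0.34 to 0.05). *Hexa* stood at 777, 849.8 and 869 CPM in WT and 773, 717 and 788 CPM in Lpcat3KOMac mice, so that 1 Lpcat3KOMac mouse exceeded the lowest WT mouse (log2 fold change -0.13, SE 0.09). *Neu1*, a sialidase, stood at 158, 165 and 150.5 CPM in WT and 145, 125 and 159.5 CPM in Lpcat3KOMac mice (log2 fold change -0.14, SE 0.11).

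*Manba*, beta-mannosidase, showed the closest values of any of the 35 genes. They were 57.5, 57.7 and 56.8 CPM in WT and 54.2, 53.9 and 54.8 CPM in Lpcat3KOMac mice, without overlap. The coefficient of variation among mice was 0.776% in WT and 0.845% in Lpcat3KOMac, less than the 1.84% that counting error alone gives at its mean count. Its log2 fold change of -0.08 (SE 0.06, 95% interval -0.24 to 0.08) had an unadjusted p of 0.278 in edgeR, and with total counts alone it was 0.02. *Glb1*, beta-galactosidase, and *Gaa*, acid alpha-glucosidase, averaged 123 ± 12.6 and 156 ± 12.5 CPM in WT and 113 ± 9.6 and 156 ± 17.1 CPM in Lpcat3KOMac mice (SD, n = 3 each). *Glb1* shares 165 exonic bases with *Tmppe* on the same strand (up to 829 counts), which leaves its level uncertain. Of the 35 genes, 2 (*Lamp1* and *Manba*) were lower in every Lpcat3KOMac mouse, against 5.2% of all genes tested, and 1 (*Atp6v0d2*) was higher in every one, against 2.29% of all genes.

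The 5 enzymes that degrade glycosaminoglycans had log2 fold changes from -0.07 to 0.05. *Gusb*, beta-glucuronidase, was the most abundant of them with 315.5 ± 19.1 CPM in WT and 327 ± 33.4 CPM in Lpcat3KOMac mice. *Ids*, *Idua* and *Sgsh*, which act on heparan sulfate, averaged 81.8 ± 12, 61.9 ± 12.1 and 43.2 ± 9.84 CPM in WT mice. In Lpcat3KOMac mice they averaged 78 ± 5.66, 59.2 ± 10.6 and 41.8 ± 6.25 CPM (SD, n = 3 each). *Arsb*, arylsulfatase B, ran from 7.81 to 22.1 CPM within WT and from 12.4 to 15.6 CPM within Lpcat3KOMac mice, so that the WT mice enclosed the other group. *Idua* shares 141 exonic bases with *Slc26a1* (up to 4133 counts) and 124 with *Dgkq* (up to 947 counts), both on the opposite strand, which leaves its level uncertain.

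Enzymes and cofactors of lysosomal lipid breakdown showed no call either, with log2 fold changes from -0.09 to 0.06 in the 8 genes. *Lipa* (chr19:34492318-34527474), which frees cholesterol and fatty acids from lipoproteins taken up by macrophages, stood at 1108, 1226 and 1074 CPM in WT and 1222, 1037 and 1302 CPM in Lpcat3KOMac mice. The Lpcat3KOMac mice held both the lowest and the highest of the 6 values. The log2 fold change was 0.06 (SE 0.12), and its 95% interval of -0.23 to 0.35 lay within a 2-fold change. *Psap* measured 6406, 6091 and 8541 CPM in WT and 7093, 7952 and 6769 CPM in Lpcat3KOMac mice (log2 fold change 0.05, SE 0.16, 95% interval -0.34 to 0.45). The highest and the lowest values of *Psap* were both in WT mice.

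Acid ceramidase (*Asah1*) averaged 721.5 ± 52.4 CPM in WT and 685 ± 18.5 CPM in Lpcat3KOMac mice, and acid sphingomyelinase (*Smpd1*) 26.9 ± 6.8 and 25.3 ± 3.81 CPM. *Galc*, galactosylceramidase, averaged 86.3 ± 16.3 and 88.1 ± 8.74 CPM, and *Arsa*, arylsulfatase A, 54.7 ± 11.8 and 52.3 ± 5.87 CPM (SD, n = 3 each). The thioesterases *Ppt1* and *Ppt2*, which remove fatty acids from proteins and other thioesters, averaged 208 ± 22.5 and 82.4 ± 14.1 CPM in WT and 210.2 ± 33.6 and 82 ± 5.66 CPM in Lpcat3KOMac mice. *Ppt1* shares 129 exonic bases with *Cap1* on the opposite strand, which had up to 44860 counts, so that its level is uncertain. The level of *Ppt2* is uncertain too, since it shares 957 of its 2614 exonic bases with *Gm20460* on the same strand. In *Smpd1*, *Arsa* and *Arsb*, the highest value was that of WT mouse 1 and the next that of Lpcat3KOMac mouse 2, the order of the hepatocyte sums.

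*Lgmn* stood at 3180, 3693 and 3578 CPM in WT and 3047, 2943 and 3685 CPM in Lpcat3KOMac mice, with overlapping groups and a log2 fold change of -0.11 (SE 0.12, 95% interval -0.42 to 0.20). *Tpp1*, tripeptidyl peptidase, averaged 333 ± 15.7 CPM in WT and 330.1 ± 29.9 CPM in Lpcat3KOMac mice (SD, n = 3 each). The acid phosphatase *Acp5*, also a marker of osteoclasts and of some activated macrophages, measured 691.5, 817 and 789 CPM in WT and 746, 702 and 821 CPM in Lpcat3KOMac mice. Its groups overlapped throughout (log2 fold change -0.02, SE 0.11, 95% interval -0.28 to 0.25), and its sign changed with total counts alone (0.07). *Acp2*, the general lysosomal acid phosphatase, averaged 550.2 ± 96.8 and 494.6 ± 28.2 CPM, and in WT mouse 2 it reached 652 CPM against 459.8 to 538.5 CPM in the other mice.

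The proton pump held the largest estimate of the 35 genes. *Atp6v0d2* (chr4:19876841-19922605, minus strand), the d2 subunit of the membrane sector, which is known from osteoclasts and macrophages, stood at 14.4, 4.51 and 23.7 CPM in WT and 37.9, 27.5 and 25.4 CPM in Lpcat3KOMac mice. All 3 Lpcat3KOMac mice were above the WT mice, but WT mouse 3 and Lpcat3KOMac mouse 3 differed by little and WT mouse 2 stood far below the others. The means were 14.2 ± 9.59 and 30.3 ± 6.72 CPM (SD, n = 3 each). The log2 fold change was 1.09 (SE 0.59) with a 95% interval of -0.37 to 2.55, an unadjusted p of 0.115 and an adjusted p of 1 in edgeR, and an exact permutation p of 0.1. It was 0.67 without WT mouse 2 and 1.68 without WT mouse 3.

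The d1 subunit, *Atp6v0d1*, which occupies the same place in the pump in most cells, averaged 122 ± 0.785 CPM in WT and 119 ± 11.4 CPM in Lpcat3KOMac mice (log2 fold change -0.04, SE 0.09). Per kb, *Atp6v0d2* was at 0.0777, 0.0242 and 0.129 of the level of *Atp6v0d1* in WT mice and at 0.216, 0.165 and 0.127 of it in Lpcat3KOMac mice. WT mouse 3 and Lpcat3KOMac mouse 3 had nearly equal ratios, so the groups overlapped, with an exact permutation p of 0.2. *Atp6v1h*, a subunit of the cytosolic sector, averaged 99.1 ± 4.4 and 99.9 ± 6.61 CPM (log2 fold change 0.01, SE 0.08).

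The genes of both transcription factors had overlapping values in the 2 genotypes. *Tfeb* stood at 36, 44.3 and 45.9 CPM in WT and 43.4, 43.8 and 48.9 CPM in Lpcat3KOMac mice (log2 fold change 0.11, SE 0.12, 95% interval -0.19 to 0.40). *Tfe3* stood at 102, 150.4 and 144 CPM in WT and 126.5, 103 and 135 CPM in Lpcat3KOMac mice (log2 fold change -0.12, SE 0.18, 95% interval -0.58 to 0.33). Per kb, *Tfe3* was 1.44 to 2.08 times as abundant as *Tfeb* in the 6 mice. These values are of messenger RNA, and the location or phosphorylation of the proteins was not measured in these libraries.

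The spread among mice was small for most of the 35 genes and large for a few. The highest of the 6 values was less than 1.5 times the lowest for 27 genes, and at least 2 times for 3 genes, *Atp6v0d2* (8.41 times), *Cd63* (7 times) and *Arsb* (2.83 times). Within a genotype the median SD on the scale of log2(CPM + 2) was 0.147 for the 35 genes and 0.155 for all genes tested. WT mouse 2 held the highest value for 14 of the 35 genes (40%) and for 21% of all genes tested, and Lpcat3KOMac mouse 3 for 9 (25.7%) and 11.2%. Lpcat3KOMac mouse 2 held the lowest value for 14 of the 35 genes (40%) and for 17.1% of all genes, and WT mouse 1 for 10 (28.6%) and 26%. WT mouse 1 and Lpcat3KOMac mouse 2 were also the pair with the highest hepatocyte sums. Taking the mean log2 CPM of the hepatocyte markers as a covariate, the median log2 fold change of the 35 genes was -0.01, with 18 estimates below 0 (51.4%) and 17 above, and no gene was called. All genes tested moved in the same way. Their median was 0.00 with the covariate and -0.04 without it, and 49.2% and 59.9% of their estimates were below 0. With the covariate, 1510 of all 16134 genes tested had an unadjusted p under 0.05 in edgeR, against 426 without it. Among the 35 genes the count was 0 with the covariate as well.

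**Figure D3:**
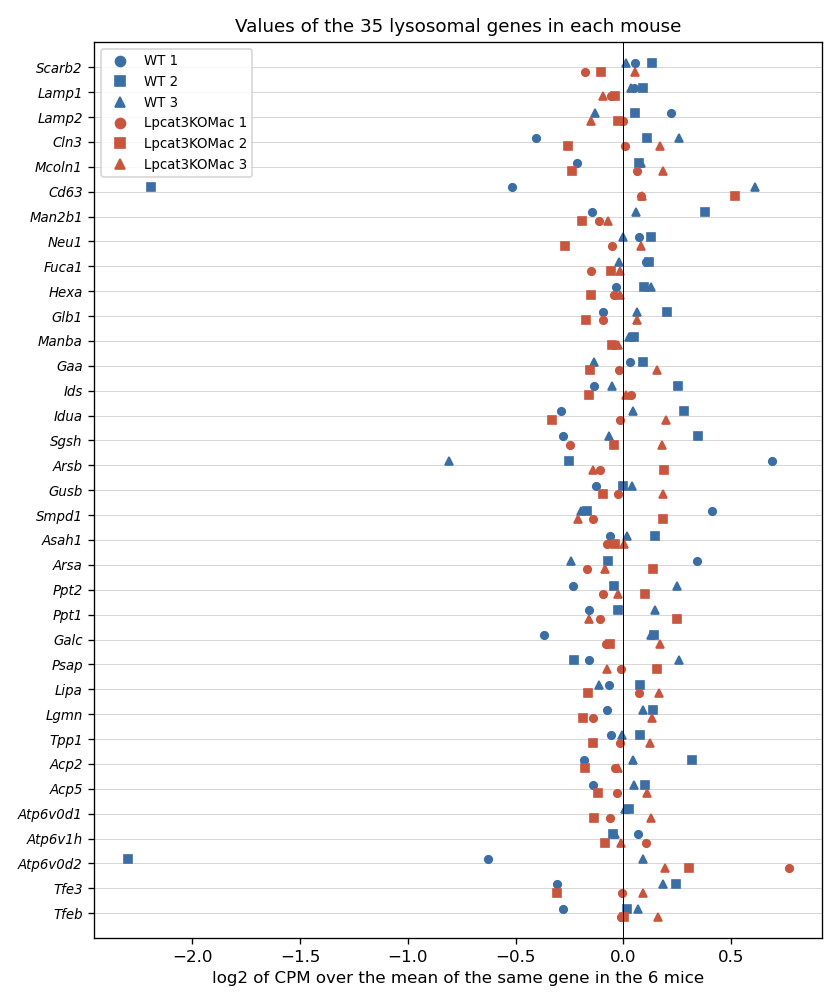
Value of each lysosomal gene in each mouse, as log2 of its CPM over the mean of that gene in the 6 mice, with blue symbols for WT, red for Lpcat3KOMac and the symbol shape for the mouse number. Symbols of both colours are mixed in most rows, *Lamp1* and *Manba* separate narrowly, and WT mouse 2 lies more than 2 log2 units below the mean for *Cd63* (24.6 CPM) and *Atp6v0d2* (4.51 CPM).

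In *Cd63* and *Atp6v0d2*, the order of the WT mice was that of the markers of recruited or lipid-associated macrophages. The 8 markers of this list (*Trem2*, *Gpnmb*, *Spp1*, *Cd9*, *Ccr2*, *Ly6c2*, *Itgax* and *Fabp5*) summed to 321, 156 and 601 CPM in WT mice and 659, 616 and 611 CPM in Lpcat3KOMac mice. WT mouse 2 was lowest and WT mouse 3 highest of the WT mice in all 3 measures. *Psap* had the same order in WT mice (6406, 6091 and 8541 CPM). So did the summed markers of dendritic cells (2.57, 2.24 and 3.35 CPM) and of neutrophils (1.99, 1.96 and 2.95 CPM). The sums of Kupffer cell, hepatocyte, sinusoidal endothelium, stellate cell and lymphocyte markers did not. In Lpcat3KOMac mice *Atp6v0d2* followed the order of the recruited or lipid-associated macrophage sums, but *Cd63* (119, 161 and 119.5 CPM) did not. All 8 markers of recruited or lipid-associated macrophages had log2 fold changes above 0 (0.36 to 1.81), and 0 were called. Of the 8, 1 had an unadjusted p under 0.05 in edgeR and 2 were higher in every Lpcat3KOMac mouse. Over all genes tested these shares were 2.64% and 2.29%. Without WT mouse 2, 7 of the 8 markers were above 0. That with the smallest p, *Spp1* (osteopontin), stood at 11.9, 2.52 and 14.5 CPM in WT and 39.4, 44.1 and 18.1 CPM in Lpcat3KOMac mice. None of the 8 was at 0 in every mouse. The part of such cells in the values of *Cd63* and *Atp6v0d2* was not tested. In the other direction, all 8 Kupffer cell markers had log2 fold changes below 0 (-0.46 to -0.18), and 0 were called. Against 2.64% of all genes tested, 2 of the 8 had an unadjusted p under 0.05 in edgeR. Against 5.2% of all genes tested, 2 of the 8 were lower in every Lpcat3KOMac mouse. That with the smallest p, *C1qa* of the complement system, stood at 3085, 3861 and 3371 CPM in WT and 2760, 2609 and 2969 CPM in Lpcat3KOMac mice. The Kupffer cell sums ran from 32007 to 44274 CPM in WT and from 25355 to 34573 CPM in Lpcat3KOMac mice. Without WT mouse 2, 5 of these 8 were below 0, and without Lpcat3KOMac mouse 2 this held for 7. Markers of other liver cells also had estimates above 0, namely 5 of 6 of sinusoidal endothelium (median 0.61, of which *Kdr* had an unadjusted p of edgeR of 0.0287), 5 of 5 of stellate cells (median 0.36) and 3 of 3 tested of neutrophils (median 0.99, of which *S100a8* had an unadjusted p of edgeR of 0.0353). Their sums were 849 to 948, 78.5 to 175 and 1.96 to 2.95 CPM in WT and 926 to 1146, 129 to 235 and 3.97 to 5.35 CPM in Lpcat3KOMac mice. No gene of these 3 lists was called, and none of them was at 0 in every mouse.

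**Figure D4:**
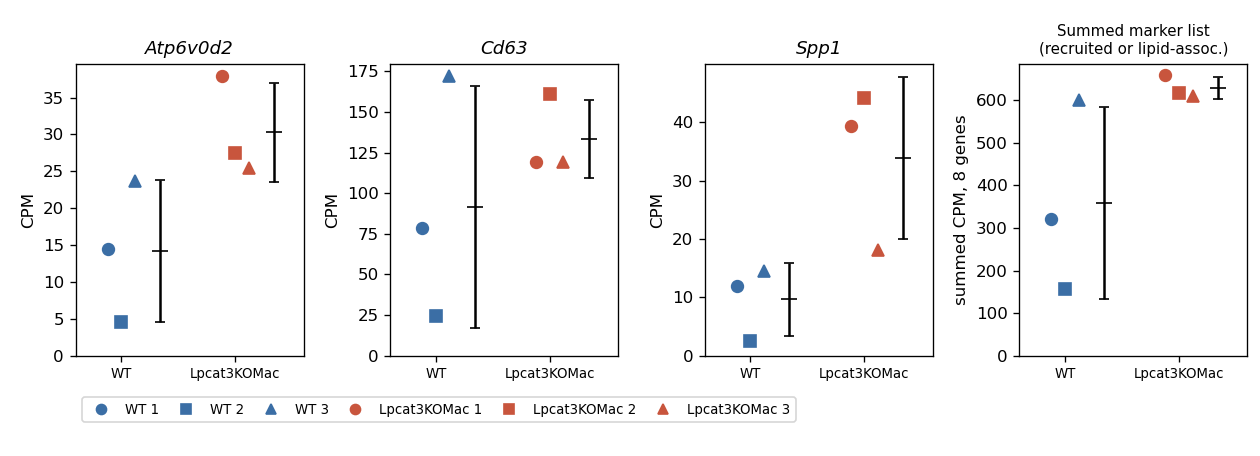
*Atp6v0d2*, *Cd63* and *Spp1* in CPM and the summed CPM of the 8 markers of recruited or lipid-associated macrophages in each mouse, on linear axes from 0, with the mean and SD of 3 mice in black. In each panel WT mouse 2 is the lowest of the 6 mice and WT mouse 3 the highest of the WT mice, and for *Cd63* WT mouse 3 (171.9 CPM) is above all Lpcat3KOMac mice.

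The rest of the lysosome was compared through lists of its other genes. Of 13 cathepsins, the main lysosomal proteases, 0 were called. Against 2.64% of all genes tested, 1 of the 13 had an unadjusted p under 0.05 in edgeR. This was *Ctsf*, which stood at 89.1, 97.3 and 90.4 CPM in WT and 75.5, 72.9 and 82.7 CPM in Lpcat3KOMac mice (log2 fold change -0.26, SE 0.08, unadjusted p 0.0219). The median of the cathepsins was -0.11, with 10 estimates below 0. Of 5 further lists with 74 genes, 73 were tested and 0 were called. Against 2.64% of all genes tested, 2 of the 73 had an unadjusted p under 0.05 in edgeR. They were *Ggh*, gamma-glutamyl hydrolase, at 44.2 ± 1.84 CPM in WT and 37 ± 1.51 CPM in Lpcat3KOMac mice (log2 fold change -0.26, unadjusted p of edgeR 0.0172), and *Gla*, alpha-galactosidase A, with a log2 fold change of 0.41 (unadjusted p 0.0463).

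Further examples, each with the smallest p of its list, lay on either side of 0. They were *Npc2*, the soluble carrier of lysosomal cholesterol (-0.21, SE 0.09), *Atp6v1f*, a subunit of the proton pump (-0.24, SE 0.12), *Sort1*, the sorting receptor sortilin (1.23, SE 0.76), and *Rragd*, a GTPase that acts upstream of TFEB (0.25, SE 0.29), each as a log2 fold change. None of the 4 had an unadjusted p under 0.05 in edgeR. Over the 73 genes the median log2 fold change was -0.05, the value also found for the 35 genes, and 69 of the 73 intervals (94.5%) lay within a 2-fold change.

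**Figure D5:**
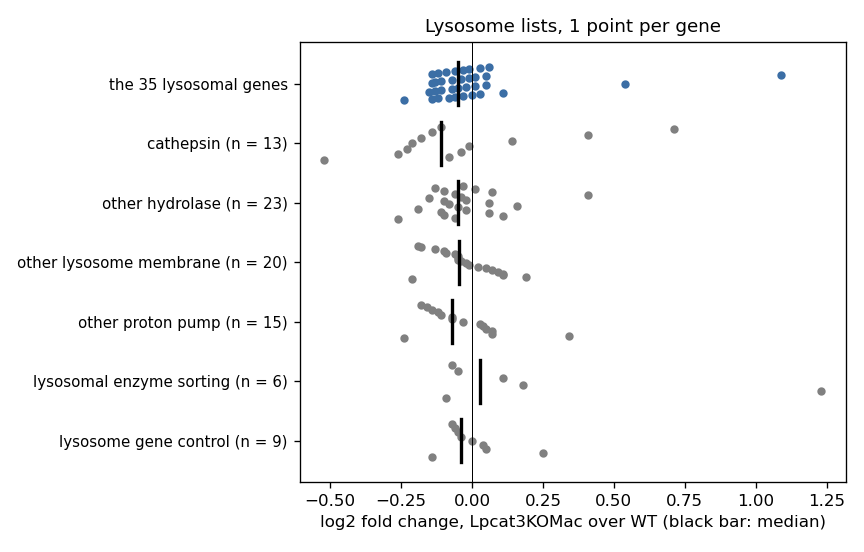
Log2 fold change, Lpcat3KOMac over WT, for the 35 lysosomal genes (blue) and for the tested genes of 6 other lysosome lists (grey), with 1 point per gene and a black bar at the median of each list. The medians lie between -0.11 (13 cathepsins) and 0.03 (6 genes of enzyme sorting), and the points farthest to the right are *Sort1* (1.23) and *Atp6v0d2* (1.09).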

How the data were processed

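RNA of liver F4/80-positive cells was extracted, selected for poly-A and sequenced by the authors, with 1 library for each of 3 WT and 3 Lpcat3KOMac mice. They deposited read counts per Ensembl gene without normalization. The submitters' processing notes name Trimmomatic 0.36, STAR 2.5.2b, featureCounts (Subread 1.5.2) and GRCm38; the strand setting and the handling of multiply mapped reads are not given in the sources used here. Of the 35 genes, 13 share exonic bases with a neighbour. The 4 whose neighbour had over 10% of their lowest count (*Ppt1*, *Idua*, *Cln3* and *Glb1*) are named as uncertain, and in the other 9 this share was at most 6.49%. This share cannot show whether reads in bases shared by 2 genes were left out of both. Among these 9, *Arsb* (1948 of 3989 exonic bases) and *Ppt2* (957 of 2614) shared the most, so their levels are uncertain too. Symbols came from GENCODE M21, in which 49056 of 49315 identifiers were found, with the same bounds for 32 of the 35 genes.

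Counts were compared in edgeR 4.0.16 (R 4.3.3) with TMM scaling, a minimum count of 10, the robust quasi-likelihood test and Benjamini-Hochberg adjustment over 16134 genes. Standard errors were computed as the absolute log2 fold change over the square root of the F statistic of the same fit. The 95% intervals were built from these standard errors. Alternatives were other scalings and filters, DESeq2 1.42.0, limma-voom (limma 3.58.1), a replicate block, a hepatocyte covariate, a length offset and left-out libraries. The tests were also run on simulated counts. Those had less spread among replicates than these libraries, so that run does not show how many real differences the tests would find here. Single genes were also compared by a two-sided exact permutation test of CPM, with a smallest p of 0.1. Levels per kb used the exonic length of the count tables. At these depths (44954224 to 71392812 counts) counting error was at most 3.65% at the mean count of any of the 35 genes, against a spread among mice that was larger for all of them but *Manba* and the WT mice of *Atp6v0d1*. No 2 libraries agreed within sampling noise (chi-square per degree of freedom of at least 40.7).

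Values in every mouse are given for the 8 genes with the smallest p, the 5 most abundant per kb, those without overlap and *Lamp1*, *Lamp2*, *Lipa*, *Cd63*, *Acp5*, *Atp6v0d2*, *Mcoln1*, *Tfeb* and *Tfe3*. Genes outside the 35 given with values of their own are the targeted genes and those with the smallest p of a list, to which *Gla* was added after its values were seen. The genes, lists and named genes were chosen with earlier results of these data known. The lymphocyte and dendritic cell markers summed to at most 6.59 and 3.35 CPM in any mouse.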

Additional observations from a re-analysis of the deposited data

How the results depend on the processing

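No lysosomal gene was called under any of the 17 alternatives. DESeq2 called 12 genes over the whole table, none of them lysosomal, where edgeR called 0. The median log2 fold change of the 35 genes ranged from -0.09 (without WT mouse 1) to 0.04 (total counts alone, which moved the median of all genes from -0.04 to 0.06). Counts of non-overlapping genes rested on single mice. The number lower in every Lpcat3KOMac mouse was 2 with all mice, 0 with total counts alone, 8 without WT mouse 1 and Lpcat3KOMac mouse 2, and 2 to 8 when 1 mouse was left out (7 without WT mouse 1, 4 without WT mouse 3, 8 without Lpcat3KOMac mouse 3). The number higher was 1 with all mice, 3 without WT mouse 1 and Lpcat3KOMac mouse 2, and 1 to 3 when 1 mouse was left out (2 without WT mouse 1 or Lpcat3KOMac mouse 1, 3 without WT mouse 3 or Lpcat3KOMac mouse 2). With 2 mice in a group fewer values can overlap, and the shares over all genes tested moved too. All genes were lower without overlap in 5.2% with all mice, 1.44% with total counts alone, 21.1% without both mice, 15.3% without WT mouse 1, 9.21% without WT mouse 3 and 6.92% without Lpcat3KOMac mouse 3. They were higher in 2.29% with all mice, 20.1% without both mice, and 16.9%, 7.21%, 5.3% and 6.28% without WT mouse 1, WT mouse 3, Lpcat3KOMac mouse 1 and Lpcat3KOMac mouse 2. The number with an unadjusted p under 0.05 was 1 in limma-voom (*Atp6v0d2*, log2 fold change 1.37, adjusted p = 1) and 0 to 1 when 1 mouse was left out (*Man2b1* without WT mouse 1, *Atp6v0d2* without WT mouse 3, adjusted p = 0.996). Over all genes, edgeR gave such a p to 2028 of 16487 genes without WT mouse 1. It did so for 543 of 16534 genes without WT mouse 3, and for 426 of 16134 with all mice. Of 17 genes followed one by one, 12 kept their sign throughout. *Acp5* changed from -0.02 to 0.07 with total counts alone, 0.03 with the hepatocyte covariate and 0.04 with the length offset, and *Manba* from -0.08 to 0.02 with total counts alone. *Psap* changed from 0.05 to -0.08 without WT mouse 1 and Lpcat3KOMac mouse 2. With 1 mouse left out, *Acp5* ranged from -0.09 to 0.05, *Mcoln1* from -0.06 to 0.16, *Psap* from -0.04 to 0.22 and *Tfe3* from -0.28 to 0.00. The cause was not tested.

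The shared replicate numbers name different mice, and same-numbered mice deviated together in 1 of 3 pairs (correlations -0.303, -0.596 and 0.36), so they were not taken as pairs. With the replicate block 0 genes were called, 138 genes had an unadjusted p under 0.05, and the median of the 35 genes was -0.04. Not every mouse correlated best with its own number. The lowest count of any of the 35 genes in a library was 226, and *Manba* had a spread among mice below its counting error.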
